A study of Homo sapiens with 38 samples.

Results

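The inducible full-length Sp1 (Sp1 WT) gave 5151 CUT&RUN peaks with mouse anti-FLAG, and 1773 of them (34.4%) overlapped no peak of 4 other lists. These lists were those of the Sp1 DBD (3277 peaks) and the EWS IDR–Sp1 DBD chimera (2535), both made with mouse anti-FLAG, and those of endogenous Sp1 in the parental line, made with rabbit anti-V5 (1987) and mouse anti-V5 (1830). The 1773 peaks are called Sp1 WT-only peaks here, and the other 3378 Sp1 WT peaks are the comparison. The name describes the lists, since a site missing from a list at an irreproducible discovery rate (IDR) of 0.1 may still be bound. The peaks were chosen by measured overlaps of peak positions, which, with every rank and −log10 p-value that goes with them, are given as a description with no test.

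All samples came from U2OS, an osteosarcoma line, carrying a homozygous V5-Halo tag on endogenous Sp1 in a single clone (the parental line). The induced lines also carry a SNAPf-tagged, 3xFLAG-tagged transgene with nuclear localization signals at the AAVS1 locus, under a doxycycline promoter. Of the transgenes, Sp1 WT is the full-length protein, Sp1 DBD lacks the amino-terminal disordered region (the IDR of construct names) but keeps the zinc fingers and the carboxyl-terminal tail, and EWS IDR–Sp1 DBD carries the disordered region of EWS in place of the missing one. Sp1 IDR–LacI and Sp1 IDR–CTCF DBD join the amino-terminal region of Sp1 to the bacterial lac repressor or to the DNA-binding domain of CTCF, which LacI and CTCF DBD hold alone. The Sp1 DBD Mutant keeps that region with a single zinc finger, and SNAP-NLS is the tag with no Sp1 sequence. By the labels every group, the parental one included, had doxycycline at 1 μg/ml over 36 h up to cell sorting and a further 36 h afterwards, with Halo and SNAP ligands at 5 nM each. The sort chose cells that expressed the transgene, and how parental cells, which have none, were sorted is not given in the sources used here. In total 38 samples made up 19 pairings of a line with an antibody, each in 2 replicates, and each deposited list merges both replicates, so the lists have no replicates of their own. Read depth behind the lists was not used here, and peak lists hold no expression values with which the labelled cell type could be checked. In all, 23 Sp1 WT-only peaks overlapped an anti-FLAG list of the parental line, SNAP-NLS, LacI alone or the Sp1 DBD Mutant. All 23 were in repeated sequence. The parental rabbit anti-FLAG list overlapped 0.508% of Sp1 WT-only peaks and 0.0296% of the others, and the parental mouse list overlapped 0 of either. For SNAP-NLS the shares were 0.677% and 0.237%, for LacI 0.282% and 0.178%, and for the Sp1 DBD Mutant 0.395% and 0.148%.

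Sp1 is a ubiquitous activator that reads the GC box (GGGCGG) through zinc fingers near its carboxyl end, while its long disordered amino-terminal region contacts cofactors. GC boxes are frequent in CpG-rich promoters, many of them of genes that nearly all cells use. CUT&RUN directs a nuclease to an antibody-bound protein and sequences the DNA released around it. Anti-FLAG reads the transgene product, and anti-V5 reads endogenous Sp1 in the same lines.

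The summit windows of 7 Sp1 WT-only peaks are shown as picked examples: tandem copies of the GC box or of other short units, no GC box, and the AP-1 motif. They are not a cross-section of these peaks. Windows with 1 GC box (29.2% of Sp1 WT-only peaks) or 2 (17.0%) are not among them. The windows shown are hg38 plus strands, shortened where an annotated UTR begins, with GGGCGG or TGANTCA on either strand in capitals. The first 4 come from peaks found most often in the V5 lists of induced lines, and the last pair was chosen after its values were seen.
RYR1 intron, chr19:38507138-38507338: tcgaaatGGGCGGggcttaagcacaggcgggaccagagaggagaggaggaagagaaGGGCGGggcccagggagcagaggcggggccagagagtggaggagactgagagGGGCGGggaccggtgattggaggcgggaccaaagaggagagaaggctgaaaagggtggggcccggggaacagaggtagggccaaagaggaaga
CAMSAP3 intron, chr19:7605600-7605800: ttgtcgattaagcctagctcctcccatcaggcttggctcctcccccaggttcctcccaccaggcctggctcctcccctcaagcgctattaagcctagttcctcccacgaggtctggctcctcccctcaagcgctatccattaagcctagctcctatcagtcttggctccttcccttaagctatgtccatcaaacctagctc
CPNE7, chr16:89587089-89587289: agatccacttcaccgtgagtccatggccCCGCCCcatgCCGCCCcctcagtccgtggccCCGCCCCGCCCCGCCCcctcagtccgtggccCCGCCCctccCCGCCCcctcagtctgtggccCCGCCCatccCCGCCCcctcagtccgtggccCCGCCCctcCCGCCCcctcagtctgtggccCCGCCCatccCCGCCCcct
WDSUB1, chr2:159286704-159286860: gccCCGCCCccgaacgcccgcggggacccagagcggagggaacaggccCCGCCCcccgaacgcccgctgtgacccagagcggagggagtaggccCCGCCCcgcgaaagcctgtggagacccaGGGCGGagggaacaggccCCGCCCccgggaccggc
MCM3, chr6:52284882-52284987: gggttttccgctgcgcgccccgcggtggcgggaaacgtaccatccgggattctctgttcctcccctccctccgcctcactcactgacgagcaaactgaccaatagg
LINC01615, chr6:169163092-169163292: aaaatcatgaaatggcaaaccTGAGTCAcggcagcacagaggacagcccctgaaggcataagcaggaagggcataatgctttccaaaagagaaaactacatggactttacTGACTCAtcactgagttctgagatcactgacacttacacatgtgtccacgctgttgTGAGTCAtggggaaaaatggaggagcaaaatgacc
upstream of MRTFA, chr22:40652019-40652219: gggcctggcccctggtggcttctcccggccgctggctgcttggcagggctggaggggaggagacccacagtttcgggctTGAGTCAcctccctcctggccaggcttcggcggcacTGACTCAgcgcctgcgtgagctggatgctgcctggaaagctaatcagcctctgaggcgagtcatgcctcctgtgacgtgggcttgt

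Sp1 WT-only peaks were concentrated among the weaker peaks of the list. When the Sp1 WT list was split by −log10 p into 4 rank groups of equal size, they were 51 of 1288 peaks in rank group 1, the strongest (3.96%), 300 in group 2 (23.3%), 592 in group 3 (46.0%) and 830 in group 4, the weakest (64.4%). Their −log10 p ran from 8.12 to 90.2 with a median of 13.4, and that of the other peaks from 8.27 to 153 with a median of 23.3. In the second replicate given to IDR the medians were 22.2 and 40.2. Of the Sp1 WT-only peaks, 1242 (70.1%) had an IDR of at most 0.05 and 286 (16.1%) of at most 0.01, against 93.3% and 67.3% of the others. The peaks were also shorter, with a median of 742 bp against 1056 bp.

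Few lay at the edge of the rule. The nearest was 80 bp from an Sp1 DBD peak at PKMYT1, a kinase gene of mitotic entry (chr16:2969671-2970745, −log10 p 15.5), and the next was 104 bp away at CHD9, a chromatin remodeler gene (chr16:53131458-53131867, 10.1). Just outside the rule, the smallest overlap was 152 bp, in repeated sequence on chromosome 16. Only 21 Sp1 WT-only peaks (1.18%) had a peak of the 4 lists within 500 bp, 43 (2.43%) within 1000 bp and 181 (10.2%) within 10000 bp. The median gap was 97944 bp over the 1771 with a peak on the same sequence. Among the other Sp1 WT peaks, 2506 (74.2%) overlapped an Sp1 DBD peak, 1807 (53.5%) an EWS IDR–Sp1 DBD peak, 1575 (46.6%) a parental rabbit anti-V5 peak and 1523 (45.1%) a parental mouse anti-V5 peak.

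**Figure D1:**
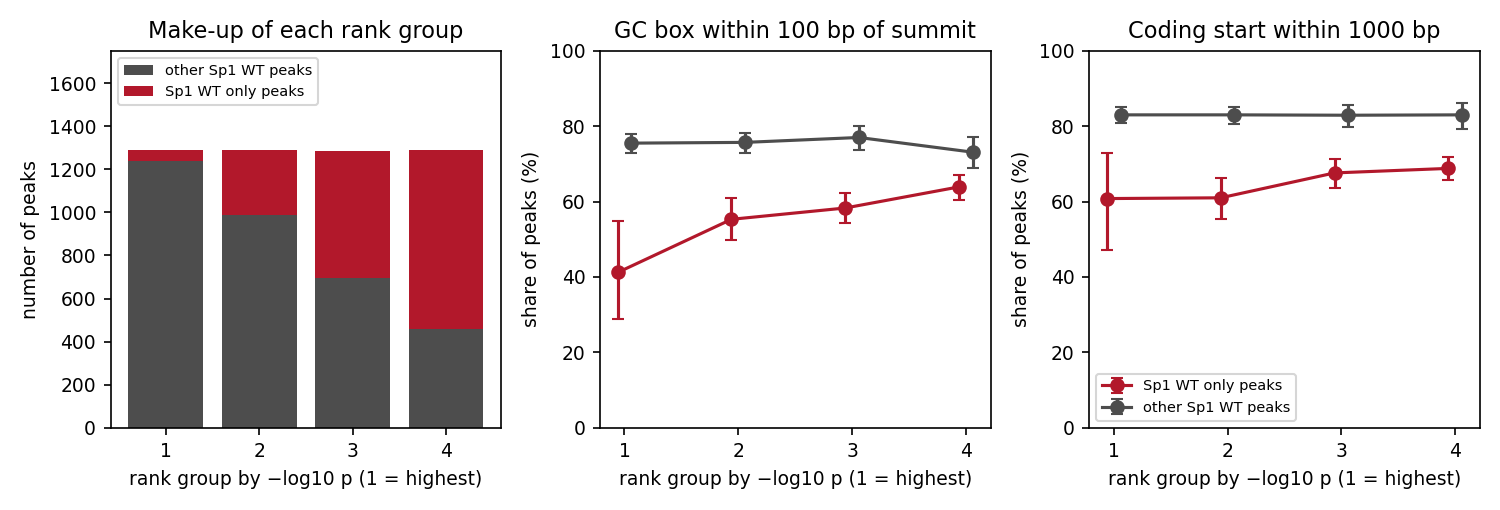
Number of Sp1 WT peaks (left), share with a GC box within 100 bp of the summit (middle) and share with a protein-coding transcription start within 1000 bp (right), by rank group of the list from highest −log10 p (1) to lowest (4). Bars and points show Sp1 WT-only peaks in red and the other Sp1 WT peaks in gray, with 95% Wilson intervals; the GC box share of Sp1 WT-only peaks ran from 41.2% in group 1 to 63.9% in group 4, below that of the others in each.

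Most Sp1 WT-only peaks were at promoters, but fewer than among the other Sp1 WT peaks. A protein-coding start of GENCODE 44 lay within 1000 bp of the summit in 1185 of 1773 (66.8%, 95% Wilson interval 64.6 to 69.0), against 2803 of 3378 others (83%, 81.7 to 84.2) and 77.4% of the whole list. The odds ratio was 0.413 (two-sided Fisher's exact test, p = 3.6e-38, Benjamini-Hochberg adjusted p = 2.9e-37 over 8 tests). The share was below that of the others in each rank group, at 60.8%, 61.0%, 67.6% and 68.8% from strongest to weakest. The Fisher's exact tests here and in what follows compare parts of one list, with sites as the units, and not cultures.

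More of them were away from starts. Of the Sp1 WT-only peaks, 134 (7.56%) had only a noncoding start within 1000 bp, 244 (13.8%) had the nearest start over 1000 and up to 10000 bp away, and 210 (11.8%) had none within 10000 bp. The same shares among the others were 5.86%, 7.16% and 4.0%. Summits were outside genes in 624 peaks, in introns in 612 and in exons in 537, with shares of 35.2%, 34.5% and 30.3% against 36.1%, 31.8% and 32.1% among the others. The nearest start belonged to a protein-coding gene in 1294 peaks, to a long noncoding RNA in 319 and to a pseudogene in 101. The pseudogene share was 5.70% against 1.81%. Coding starts on both strands were near 143 Sp1 WT-only peaks (8.07%) and near 448 others (13.3%). By chromosome, Sp1 WT-only peaks made up from 27.5% of the Sp1 WT peaks (chromosome 19, 135 of 491) to 41.7% (chromosome 1, 226 of 542).

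The GC box was less frequent at Sp1 WT-only peaks than at the other Sp1 WT peaks. GGGCGG on either strand lay within 100 bp of the summit in 1062 of 1773 (59.9%, 57.6 to 62.2) against 2552 of 3378 (75.5%, 74.1 to 77.0), beside 70.2% of the whole list. The odds ratio was 0.483 (two-sided Fisher's exact test, p = 9.7e-31, adjusted p = 3.9e-30). Windows of the same length 2000 bp away held the motif in 8.12% of cases around Sp1 WT-only peaks and in 7.56% around the others, and 46.9% of windows of that length centered on the outermost start of 19970 protein-coding genes, called promoters here, held it. At least 4 copies were present in 110 Sp1 WT-only peaks (6.20%) and in 501 others (14.8%). The longer form GGGGCGGGG, which contains GGGCGG, showed the same order, with 19.6% against 31.2% and 15.9% of all promoters (odds ratio 0.537, Fisher's exact test, adjusted p = 1.5e-18 over 11 motif tests). The looser GGGNGGGG gave 46.8% against 57.8% (odds ratio 0.642, Fisher's exact test, adjusted p = 3.2e-13), where all promoters gave 34.8%.

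Among Sp1 WT-only peaks the GC box share was lowest where the peaks were strongest. It was 41.2% (21 of 51) in rank group 1, then 55.3%, 58.3% and 63.9%, whereas in the others it was 75.5%, 75.7%, 77.0% and 73.1%. The odds ratio was 0.227 in rank group 1 (p = 5.3e-07) and 0.649 in rank group 4 (p = 6.5e-04, both by two-sided Fisher's exact test). Outside repeated sequence the order of the shares was the same, from 40.4% (19 of 47) to 64.8% (496 of 765), and at coding starts alone it was 51.6%, 61.7%, 67.8% and 72.5%. With no coding start within 1000 bp it was 25.0% (5 of 20), 45.3%, 38.5% and 44.8%, lowest in rank group 1 but with no steady rise. The trend across rank groups is described and was not tested. Of the 711 Sp1 WT-only peaks with no GC box near the summit, 466 had one elsewhere in the peak and 245 had none at all. Their median −log10 p was 14.2, against 12.9 in the 1062 with a GC box.

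**Figure D2:**
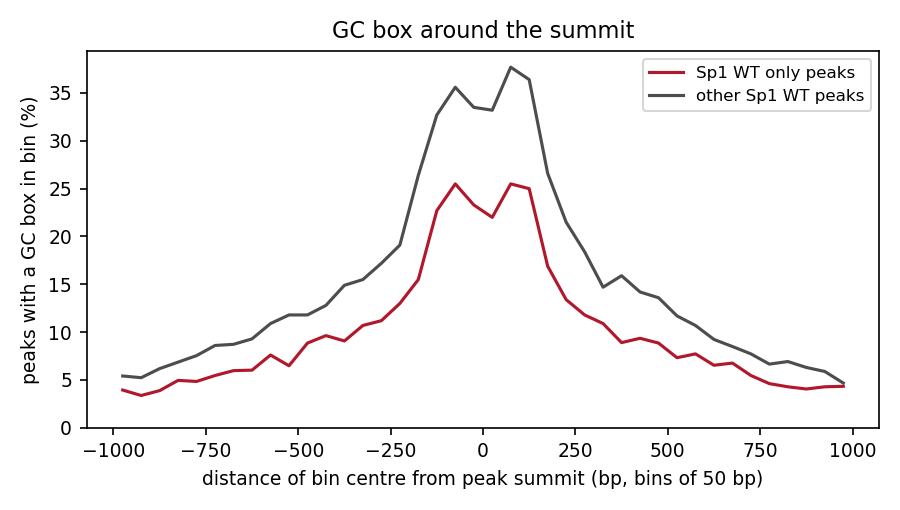
Share of peaks with a GC box in each 50-bp bin from 1000 bp before to 1000 bp after the summit, for Sp1 WT-only peaks (red) and the other Sp1 WT peaks (gray). Both lines peak beside the summit, at 25.5% and 37.7% of peaks.

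The GC box difference was present in every class of distance to a start. At coding starts 68.7% of Sp1 WT-only peaks and 78.1% of the others held it (odds ratio 0.615, exact test, adjusted p = 4.5e-09), and with only a noncoding start nearby the shares were 58.2% and 74.7% (0.471, 0.0036). At over 1000 and up to 10000 bp they were 43.9% and 58.7% (0.550, 0.003), and with no start within 10000 bp they were 30.0% and 54.1% (0.364, 4.0e-05). Each was a two-sided Fisher's exact test, adjusted over 8 tests of both motifs in the 4 classes.

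The AP-1 motif TGANTCA, read by Fos and Jun dimers, was more frequent near the summit of Sp1 WT-only peaks. It lay within 100 bp of 129 summits (7.28%, 6.16 to 8.58) against 104 of the others (3.08%, 2.55 to 3.72), beside 4.52% of the whole list and 3.91% of all promoters. The odds ratio was 2.47 (two-sided Fisher's exact test, p = 2.6e-11, adjusted p = 9.6e-11 over 11 motif tests). Around the peaks, 2000 bp away, the shares were 4.87% and 5.24%, and over the whole peak they were 20.2% and 19.1%. Within the classes of distance to a start the odds ratio was 1.62 at coding starts (Fisher's exact test, adjusted p = 0.029), 2.93 with only a noncoding start (adjusted p 0.037), 1.94 at over 1000 and up to 10000 bp (0.028) and 1.95 with no start within 10000 bp (0.091). The motif was more frequent among weaker peaks of both sets, and the odds ratio of 2.47 takes no account of rank. From rank group 1 to 4 its share was 3.92%, 5.00%, 8.78% and 7.23% in Sp1 WT-only peaks. In the others it was 1.70%, 2.83%, 5.04% and 4.37%. In rank group 4 the odds ratio was 1.71 (p = 0.053, two-sided Fisher's exact test). Of the 129, 42 were at coding starts, 43 also had a GC box (33.3%), and 7 (5.43%) were in a V5 list of an induced line.

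The strongest peaks with the AP-1 motif outside repeated sequence were named after their values were seen. The first was in an exon of HPCAL1, a gene for a neuronal calcium sensor (chr2:10407904-10409581, −log10 p 39.9), 11456 bp from the nearest start. The second was near the start of LINC01615, a long noncoding RNA (chr6:169162721-169163978, 29.0), whose window shown above holds 3 copies and no GC box. Others were at MAGIX (26.1), upstream of MRTFA, a coactivator of serum response factor (25.5, 15400 bp away, 2 copies and no GC box), and at BACH1, which itself codes for a basic leucine zipper repressor (24.4). Of these 5, only the MAGIX peak was in V5 lists of induced lines, in 3 of them.

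Other promoter motifs differed less. CCAAT, the site of NF-Y, was at 26.5% of Sp1 WT-only peaks and 31.9% of the others (odds ratio 0.770, exact test, adjusted p = 1.5e-04), with 26% of all promoters. CCCACCC, bound by Sp and KLF proteins, was at 19.6% and 22.5% (0.838, exact test, adjusted p = 0.033), with 14.2% of promoters. No difference passed the threshold for the ETS motif CCGGAAG (8.12% and 8.44%), the NRF1 palindrome (1.07% and 0.681%), AAGATGGCG of YY1 (0.677% and 0.770%), the E-box CACGTG (4.74% and 4.68%), TGACGTCA of CREB (1.30% and 1.04%) or a core motif of CTCF (2.26% and 1.87%), with adjusted p from 0.26 to 0.94 by two-sided Fisher's exact test. Of these, TGACGTCA does not match TGANTCA. The CTCF DBD list overlapped 56 Sp1 WT-only peaks (3.16%) and 144 others (4.26%), beside 3.88% of the whole list (odds ratio 0.732, p = 0.057, adjusted p = 0.077, two-sided Fisher's exact test).

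**Figure D3:**
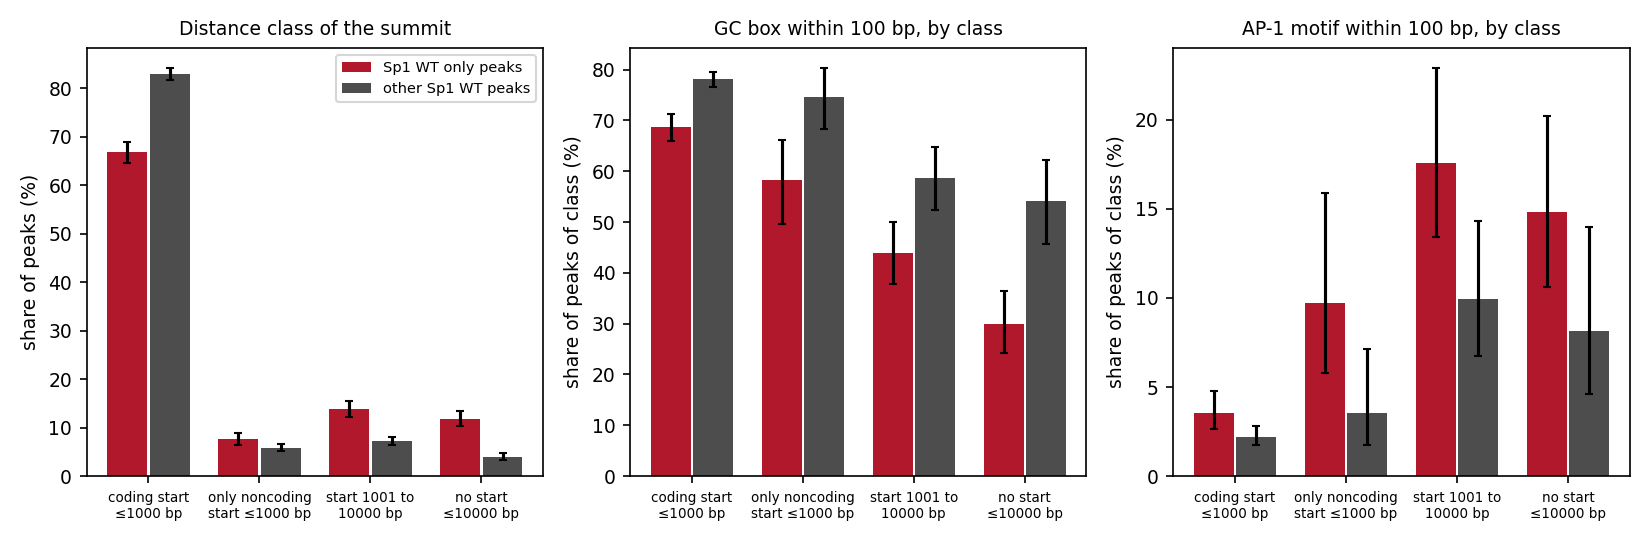
Share of peaks in each class of distance from the summit to a transcription start (left), and share of the peaks of each class with a GC box (middle) or an AP-1 motif (right) within 100 bp of the summit, with 95% Wilson intervals. Sp1 WT-only peaks are red and the other Sp1 WT peaks gray; the red bar is the lower in each class for the GC box and the higher in each for the AP-1 motif.

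Endogenous Sp1 was also profiled in 3 of the induced lines, whose V5 lists the rule did not use, and 212 of the 1773 Sp1 WT-only peaks (12%) were in 1 or more of these 6 lists, against 42.7% of the whole Sp1 WT list. The other 1561 were in none. In the Sp1 WT line itself, 80 (4.51%) were in the rabbit anti-V5 list, where 26.4% of all Sp1 WT peaks were, and 31 (1.75%) in the mouse list, where 21.1% were. In the Sp1 IDR–LacI line the numbers were 89 (5.02%, beside 32.8%) and 67 (3.78%, beside 27.3%), and in the Sp1 IDR–CTCF DBD line 114 (6.43%, beside 33.4%) and 33 (1.86%, beside 22.2%). These lists measure the same endogenous protein whose parental lists the rule excluded, so the shares were not tested against the others. By line, 27 peaks were in a V5 list of the Sp1 WT line only, 119 in those of a chimera line only and 66 in both. The share in any V5 list was 41.2%, 24.0%, 12.5% and 5.42% in rank groups 1 to 4, and among the other Sp1 WT peaks it fell in the same order, from 85.9% to 53.6%, 40.6% and 25.1%.

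Which line's V5 lists held more Sp1 WT-only peaks depended on the length of the lists and on repeated sequence. Each line has 1 merged list for each antibody and sites are not replicates of a line, so these counts are given with no test. As deposited, with rabbit anti-V5, 59 were in the Sp1 WT line's list and not the Sp1 IDR–LacI line's, and 68 the reverse. With mouse anti-V5 the numbers were 7 and 43. Against the Sp1 IDR–CTCF DBD line they were 47 and 81 with the rabbit antibody and 14 and 16 with the mouse antibody. The lists differed in length, from 1332 peaks (Sp1 WT line, mouse) to 2172 (Sp1 IDR–CTCF DBD line, rabbit). With the lists of each antibody shortened to one common length from the top of the ranking, all 4 differences changed direction. The rabbit lists then held 80, 50 and 57 Sp1 WT-only peaks for the Sp1 WT, Sp1 IDR–LacI and Sp1 IDR–CTCF DBD lines, and the mouse lists held 31, 29 and 25. Of the 80 in the rabbit list of the Sp1 WT line, 40 were in repeated sequence, against 3 of the 89 for Sp1 IDR–LacI. With equal lengths and without repeated sequence the rabbit numbers were 40, 48 and 50.

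**Figure D4:**
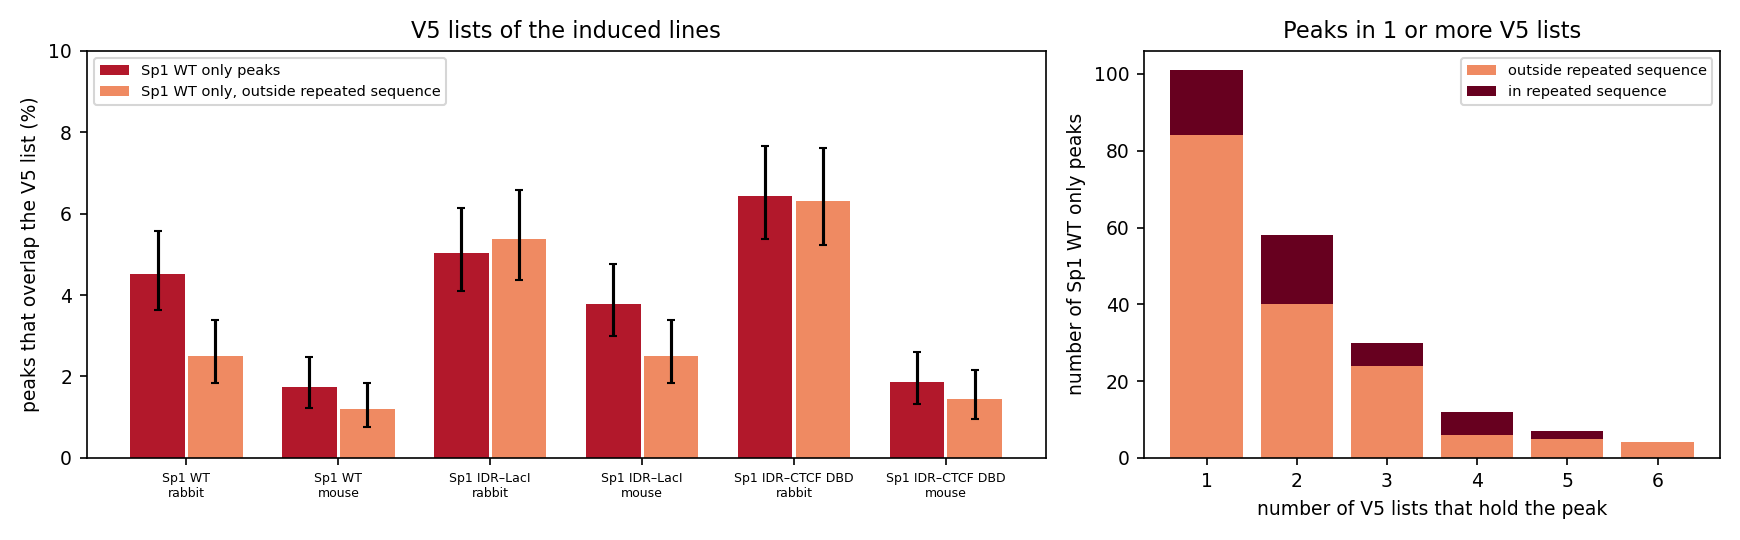
Left, share of Sp1 WT-only peaks that overlap each V5 list of an induced line, for all 1773 and for the 1600 outside repeated sequence, with 95% Wilson intervals. Right, number of Sp1 WT-only peaks by how many of the 6 V5 lists hold them, with 101 in 1 list and 4 in all 6. In 4 or more lists were 23 (1.30%, against 35.3% of the others), 8 of them in repeated sequence.

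Among the other Sp1 WT peaks, 705 (20.9%) were in all 6 V5 lists. Only 4 Sp1 WT-only peaks (0.226%) were. The strongest, in an intron of RYR1, the gene of the skeletal muscle calcium release channel (chr19:38506947-38507892), had a −log10 p of 53.9 with anti-FLAG. In the V5 lists it had 34.4 and 42.2 in the Sp1 WT line (rabbit, then mouse), 23.6 and 45.3 in the Sp1 IDR–LacI line, and 28.0 and 37.4 in the Sp1 IDR–CTCF DBD line. It lay 11023 bp from the nearest start and 103781 bp from the nearest peak of the 4 excluded lists. The peak in an intron of CAMSAP3, a gene for a microtubule minus-end protein (chr19:7605380-7606147), had 28.3 with anti-FLAG and from 14.5 to 35.0 in the V5 lists. ZNF414, a zinc finger gene (chr19:8513180-8514461), had 26.7 with anti-FLAG and from 12.9 to 33.5 with anti-V5. CPNE7, a gene of the copine family of calcium-dependent membrane-binding proteins (chr16:89586960-89587447), had 11.1 with anti-FLAG and from 11.7 to 19.4 with anti-V5. The 11.1 was the smaller of its anti-FLAG replicate values, and the other was 38.9. Values of different lists are not on a common scale, and by the rule the parental lists, made with the same antibodies, held none of the 4.

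Tandem repeats of short units were noticed in some of the printed windows, and the feature was then measured without a test. In the RYR1 window 67.1% of bases equalled the base 52 bp further on, in the CPNE7 window 77.1% at 31 bp, and in the whole WDSUB1 window 65.2% at 46 bp. CAMSAP3 reached 45.8% at 48 bp. RYR1, CPNE7 and CAMSAP3 were in all 6 V5 lists and WDSUB1 was in 5. ZNF414, also in all 6 but with no window printed, reached 39.6% at 100 bp. KLK4, ENSG00000269694 and ARHGAP45, each in 5 lists and also not printed, reached 42.9%, 43.9% and 51.6%. The median over all Sp1 WT-only peaks was 38%, at the best offset from 10 to 100 bp. Of the 15 Sp1 WT-only peaks outside repeated sequence in 4 or more V5 lists, 5 reached 60% (33.3%), against 30 of 1437 in no V5 list (2.09%). At a limit of 70% the numbers were 2 of 15 (13.3%) and 15 of 1437 (1.04%). The 5 were at RYR1, CPNE7, WDSUB1, PNPLA7 (68.5% at 39 bp) and ACSBG2 (71.1% at 66 bp), of which the first 3 are windows that prompted the measure. Among the other Sp1 WT peaks outside repeated sequence the shares were 57 of 1121 (5.08%) and 7 of 1330 (0.526%). Of the same 15 peaks, 10 were on chromosome 19. That chromosome held 491 of the 5151 Sp1 WT peaks, and 28 of its 135 Sp1 WT-only peaks (20.7%) were in a V5 list. The chromosome 19 share of the other Sp1 WT peaks in 4 or more V5 lists was not counted, so 10 of 15 is not shown to be particular to Sp1 WT-only peaks.

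Of the strongest Sp1 WT-only peaks outside repeated sequence after RYR1, some were in V5 lists and others were in none. The peak nearest to the pseudogene LDHAL6FP (chr6:157273412-157275363, −log10 p 43.3) was in none, and neither were those at the long noncoding RNA ENSG00000289059 (chr7:76313871-76314685, 40.9), HPCAL1 (39.9) and the DUX4L35 pseudogene (chr20:29445061-29445840, 39.3). C4orf33 (chr4:129095767-129096714, 40.6), 82 bp from its start and with no GC box near the summit, was in 3 lists at 8.41 to 15. ENSG00000286828, 402 bp from the start of the kinase gene RIOK2 (chr5:97183270-97184109, 37.2), was in the rabbit list of the Sp1 IDR–LacI line only, at 9.25. These peaks were chosen for high anti-FLAG values, so their anti-FLAG and V5 values are not compared.

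**Figure D5:**
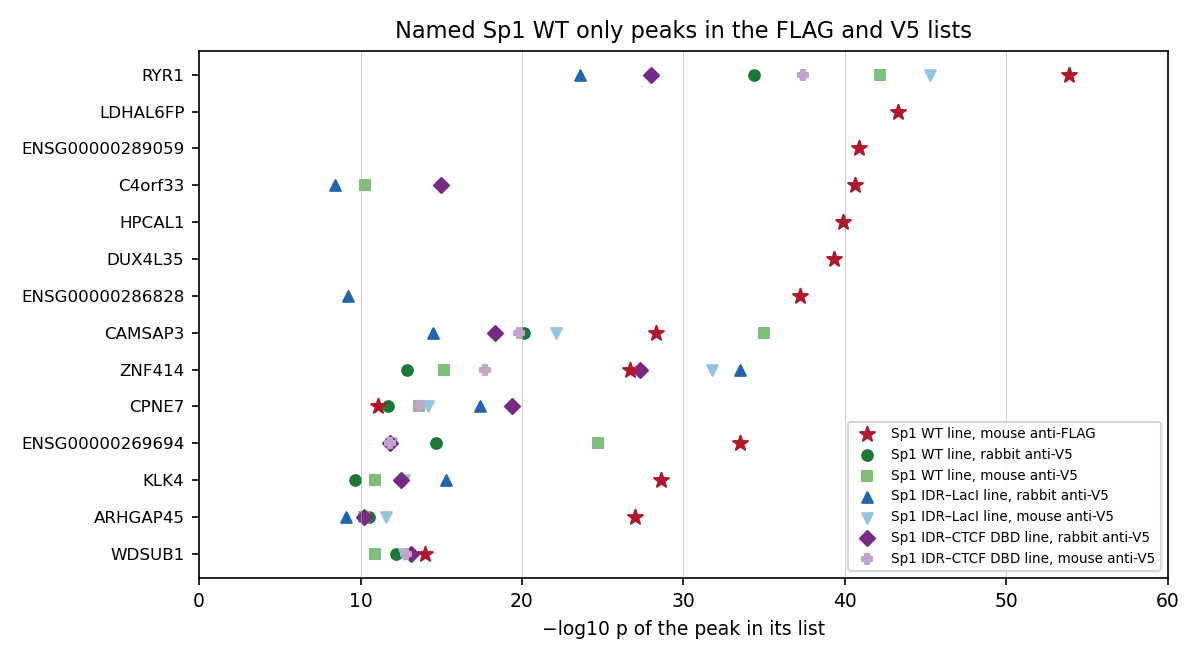
Value of −log10 p of named Sp1 WT-only peaks in the anti-FLAG list of the Sp1 WT line (red star) and in each of the 6 V5 lists of induced lines that holds the peak; a missing symbol means that the list does not hold it. RYR1 stands at 53.9 with anti-FLAG and from 23.6 to 45.3 with anti-V5, whereas LDHAL6FP, ENSG00000289059, HPCAL1 and DUX4L35 have the anti-FLAG value alone.

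Among the strongest peaks with no GC box anywhere in the peak was that of MCM3, a subunit of the replicative helicase (chr6:52284591-52285074, −log10 p 31.4), whose summit was 6 bp from the start. It was in no V5 list of an induced line, and its nearest excluded peak was 76639 bp away. KBTBD2 had one 11561 bp from its start (chr7:32905083-32906088, 30.7), in 38.3% GC sequence, and both V5 lists of the Sp1 IDR–CTCF DBD line held it, at 12.3 and 13.7. At the other end, CPNE7 had 13 GC boxes within 100 bp of the summit, MZT1P1 and QSOX2 had 10 each, CCDC85C had 8 and KPNA2, an importin gene, had 7. Their −log10 p values ran from 10.9 to 22.1, and only CPNE7 and CCDC85C, in 6 and 3 lists, were in V5 lists of the induced lines.

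Repeated sequence, in which at least 50% of the 31-base words of the summit window occur elsewhere in hg38, held 173 Sp1 WT-only peaks (9.76%, 8.46 to 11.2) and 179 of the others (5.30%, 4.59 to 6.11), beside 6.83% of the whole list (odds ratio 1.93, two-sided Fisher's exact test, p = 4.7e-09, adjusted p = 1.3e-08). At an IDR of at most 0.01 the odds ratio was 1.35 (p = 0.22, two-sided Fisher's exact test). Both tests count each site separately, and clustered sites in repeated sequence may not be independent, so the p-values may be too small. On chromosome 1 there were 42 of the 173, of which 23 lay in chr1:143193045-143424804, and 14 were on unplaced or unlocalized sequence. In that interval 21 of the 23 were in the rabbit anti-V5 list of the Sp1 WT line and 12 in the anti-FLAG list of Sp1 IDR–LacI, a protein whose own list had 228 peaks. The Sp1 IDR–LacI list overlapped 32 Sp1 WT-only peaks and 8 others, beside 0.777% of the whole list, and 1 of the 32 was outside repeated sequence. A GC box was near the summit in 61 of the 173 (35.3%). The strongest Sp1 WT-only peak of all was of this kind, at the start of the long noncoding RNA ENSG00000248787 (chr3:125915005-125917398, −log10 p 90.2), with 78.4% repeated words, and was held by the mouse anti-V5 list of the Sp1 WT line alone, at 135. Reads in such sequence cannot be placed with certainty, and their part in the V5 results is given above by the values without these sites.

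By gene, 4596 of 20020 protein-coding genes had an Sp1 WT peak within 1000 bp of a start, and 1363 of these (29.7%) had an Sp1 WT-only peak, which was the only kind at 1304. The gene groups below are described against this share, with no test of the lists. Proteasome subunit genes had the highest share of the lists, 8 of 13 with a peak: ADRM1, PSMA2, PSMA5, PSMA6, PSMB1, PSMB3, PSMB5 and PSMD11. Their −log10 p ran from 9.67 (PSMA6) to 27 (PSMA5), and PSMB3 was in 3 V5 lists of induced lines and PSMB1 in 1. Mitochondrial ribosomal protein genes had 11 of 25. Of these, MRPS31 (25.5) and MRPL32 (22.8) were in no V5 list of an induced line, and MRPL55 (11.8) was in 2. One peak served both MRPL32 and PSMA2, which start back to back, and another both PSMB1 and TBP, the TATA-binding protein gene. Cytosolic ribosomal protein genes had 6 of 20, among them RPL39, RPS14 and RPSA.

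Replication genes had 6 of 20, among them MCM3 (31.4), the helicase component CDC45 (24.9, with 2 GC boxes) and MCM7 (16.6). Nucleotide synthesis had 4 of 10, with the thymidylate synthase gene TYMS (16.7), ATIC (13.9), GMPS (11.9, 4 GC boxes and 3 V5 lists) and PFAS (11.3). The cell cycle list had 4 of 10, with CDK2 (22.1, 4 GC boxes), E2F3 (15.9), CCNB1 (11.8) and CHEK1 (11.1). Of the Sp and KLF factor genes, 3 of 13 had such a peak: KLF3 (15.8, 6 GC boxes), KLF2 (15.2) and SP6 (10.5). Genes of Mediator and TFIID had 7 of 19, including MED25 (27.6), which shares a repeated-sequence peak with FUZ, TAF6 (20.4) and MED26 (11.2, with 7 GC boxes and in 4 V5 lists). Zinc finger genes named ZNF had 38 of 122, a share of 31.1% close to that of all genes, with ZNF414 (26.7) and ZNF497 (25.8) the strongest. Histone genes had 3 of 8, where H2AC11 and H2BC11 share a peak. Cholesterol and fatty acid synthesis had 4 of 14 (CYP51A1, SREBF1, FDPS and ACACA, from 8.27 to 13.3). The Sp1 WT-only peak was the only kind at 2 of these genes, and SREBF1 and ACACA also had another Sp1 WT peak. Of the aminoacyl-tRNA synthetase genes 4 had an Sp1 WT peak, and of the HOX genes and the EWS family 1 each, none of them Sp1 WT-only. Olfactory receptor and bone genes had no Sp1 WT peak at all.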

How the data were processed

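The data were CUT&RUN peak lists of 38 samples, 19 groups of 2 biological replicates, taken from the labels. Per the methods and the submitters' processing notes, the authors used Cutadapt 2.6 for trimming, Bowtie2 2.3.5.1 for alignment to hg38 and samtools 1.9 to drop duplicates. Peaks of each replicate came from MACS3 (given as 2.2.7.1) with a cutoff of 1e-3, without a local background and with control replicates merged, and those with an IDR of at most 0.1 were kept. The −log10 p-values of the peaks and the score of each peak (the −log10 of its global IDR) are those the authors deposited. In every list the value of the merged peak is the smaller of the replicate values. A blacklist is stated for the coverage tracks and not for the peaks. The 6 tables of the authors' own differential regions hold log10 likelihood ratios and were not used. The read numbers of the libraries, which the study lists, were not used here, so no limit from depth was set, and Wilson intervals (95%) cover counting error over peaks only.

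Overlap meant at least 1 bp in common, and the overlap counts of 18 lists were the same with bedtools 2.31.1. Motifs were searched on both strands within 100 bp of the summit, on the hg38 reference, and in windows of 201 bp at the starts of protein-coding genes. Starts and genes came from GENCODE 44. Two-sided Fisher's exact tests (SciPy 1.17.1) used a threshold of 0.05, with Benjamini-Hochberg adjustment (statsmodels 0.14.6) over 8 main, 11 motif and 8 class tests. Of the 8 main tests, 4 were exact binomial tests between V5 lists of different lines, whose p-values are not given because sites are not replicates of a line. The overlap and motif code was tested on simulated data. The peaks, gene lists and tests were chosen with earlier results of these data known, and genes for S6 kinases were removed from the ribosomal list after the files were read. Genes named are those with the nearest start to, outside repeated sequence and control peaks, the 8 strongest peaks, the 8 in most V5 lists, the 5 with most GC boxes, the 5 strongest without a GC box and the 5 strongest over 10 kb from a start, then the 5 strongest in repeated sequence, those at the edge of the rule and those at listed genes. Chromosome 8 was left out of the naming, and some peaks that this rule names are not reported here. Alternatives were IDR limits of 0.05 and 0.01, other overlaps, distances, motif forms and windows, rank groups of the list, equal list lengths and no repeated sequence. Other software was Python 3.11.15, NumPy 2.4.6, pandas 2.3.3, pysam 0.24.0 and matplotlib 3.10.9.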

Additional observations from a re-analysis of the deposited data

How the results depend on the processing

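The number of Sp1 WT-only peaks was 1773, and it was 286 at an IDR of at most 0.01 and 637 with only the top of the Sp1 WT list, to the length of the Sp1 DBD list. With an IDR of at most 0.05 it was 1242, and with no peak of the 4 lists within 1000 bp it was 1730. The odds ratios of the GC box (0.227 to 0.649) and of the coding start (0.317 to 0.453) kept their direction and their side of 0.05 under every alternative run; the whole-peak search gave the GC box 0.258. The odds ratio of repeated sequence was 1.35 (p = 0.22, Fisher's exact test) at an IDR of at most 0.01. That of the CTCF DBD list, 0.732, was 1.25 (exact test, p = 0.45) at the same limit. That of the AP-1 motif was 1.71 (exact test, p = 0.053) in the weakest rank group and 1.95 (p = 0.091) with no start within 10000 bp, and the AP-1 alternatives were added after seeing the data.

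The differences between V5 lists, as the number in the Sp1 WT line minus that in the chimera line, depended on list length and repeated sequence. For Sp1 IDR–LacI with the rabbit antibody the difference was -9, and it was 30 with lists of equal length, -15 at an IDR of at most 0.01 and -46 without repeated sequence. With the mouse antibody it was -36, and 2 with equal lengths. For Sp1 IDR–CTCF DBD it was -34 with the rabbit antibody and 23 with equal lengths, and -2 with the mouse antibody, where equal lengths gave 6 and an IDR of at most 0.01 gave 0. Equal lengths without repeated sequence, added after seeing the data, gave 8 for Sp1 IDR–LacI with the mouse antibody, and -10 (rabbit) and 2 (mouse) for Sp1 IDR–CTCF DBD. The cause was not tested, beyond the shorter lists that these alternatives use.

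No paired analysis was possible because each list merges both replicates. Leaving out a replicate could not be run for the same reason. Depth could not be judged from the lists.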
